A study of Mus musculus with 3 samples.

Results

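The cells described here are parathyroid cells that were recovered with the embryonic mouse thymus. They were chosen by their own transcripts: every kept cell with at least 50 UMIs of Pth and at least 5 UMIs of Chga was a member, where a UMI is a molecular tag that counts 1 captured RNA molecule. The members numbered 351 of 19932 kept cells. The Foxn1 1089/1089 library held 321 of these and the control library 29, while the library labelled Tbx1 neo2/neo2 held 1. The comparison group was the other Epcam-positive cells of the same library, meaning kept cells with at least 3 UMIs of the epithelial adhesion gene Epcam that were not members.

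The 3 libraries were droplet-based 3' single-cell RNA libraries from thymic lobes of embryonic day 13 to 13.5, dissociated with trypsin. The control embryos were wild type. Foxn1 1089/1089 embryos were homozygous for a small deletion in Foxn1, the transcription factor that drives thymic epithelial development. Tbx1 neo2/neo2 embryos were homozygous for a Tbx1 allele lowered by a neomycin cassette in an intron, and Tbx1 encodes a T-box factor of the pharyngeal arches that is linked to DiGeorge syndrome. Every cell of these embryos carried the allele. There was 1 library per genotype, so that genotype, embryos, dissection and library cannot be told apart. No test between genotypes or cell groups was possible, cells of a library are not replicates, and the intervals given are exact 95% intervals of counting error only. The limit that a count of 0 allows is taken as 3 counts. The folds of single genes below are ratios of UMIs per 1000000 UMIs of the summed cells (CPM).

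Parathyroid glands arise with the thymus from the endoderm of the third pharyngeal pouch. The dorsal part of the pouch turns on Gcm2, the master regulator of the parathyroid fate, while the ventral part turns on Foxn1 and becomes thymus. The mature parathyroid chief cell reads blood calcium through the calcium-sensing receptor Casr and releases parathyroid hormone, the product of Pth, from dense-core granules that hold chromogranin A, the product of Chga.

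The 250 bases upstream of the RefSeq transcription start (GRCm38.p6) are shown for the 2 genes that chose the cells and for Casr, the receptor that controls their secretion. Capitals mark matches to motifs searched on both strands, among which were AGATAA for GATA factors, ATGCGGG for GCM factors and TGACGT for cAMP-responsive factors. The Pth window lies at chr7:113388574-113388823 on the minus strand, the Chga window at chr12:102554691-102554940 on the plus strand and the Casr window at chr16:36562135-36562384 on the minus strand.
Pth: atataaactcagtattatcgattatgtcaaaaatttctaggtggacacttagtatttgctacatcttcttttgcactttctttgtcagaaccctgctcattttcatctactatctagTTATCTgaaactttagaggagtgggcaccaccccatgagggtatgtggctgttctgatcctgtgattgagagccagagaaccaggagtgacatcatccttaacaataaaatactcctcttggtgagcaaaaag
Chga: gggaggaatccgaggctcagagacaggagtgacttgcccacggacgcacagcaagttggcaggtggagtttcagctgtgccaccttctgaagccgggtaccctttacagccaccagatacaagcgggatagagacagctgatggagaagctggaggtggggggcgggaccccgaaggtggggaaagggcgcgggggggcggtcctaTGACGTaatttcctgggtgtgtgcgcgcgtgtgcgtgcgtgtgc
Casr: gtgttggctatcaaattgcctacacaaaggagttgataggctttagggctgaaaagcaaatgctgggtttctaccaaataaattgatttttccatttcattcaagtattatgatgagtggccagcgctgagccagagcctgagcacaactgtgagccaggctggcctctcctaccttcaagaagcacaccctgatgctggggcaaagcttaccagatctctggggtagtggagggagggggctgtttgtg

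The Pth window held 1 GATA motif, on the minus strand, beginning 133 bases before the start, and the Chga window held 1 cAMP motif on the plus strand, beginning 44 bases before it. The Casr window held none of these 3 motifs. Of the 25 genes with the highest ratio in the members (named below), 22 matched a RefSeq window, and 2 of these held the GATA motif, 1 the GCM motif and 4 the cAMP motif. Over the windows of all 27025 genes, the shares were 11.4%, 1.35% and 7.29%. These matches describe letters only.

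The targeted genes were read first, over all kept cells. Tbx1 stood at 1.46 CPM in control cells (interval 1.21 to 1.76) and 6.36 CPM in Foxn1 1089/1089 cells (5.98 to 6.76). It was not lower than in control cells where its own allele was named. The library labelled Tbx1 neo2/neo2 held 5.06 CPM (4.68 to 5.46). These are levels over all kept cells, and the libraries differed in cell make-up. At least 10 UMIs of a list of 10 thyroid genes were found in 15.7% of that library's other Epcam-positive cells, against 0.160% in the control library. The effect of the allele on Tbx1 within a cell type was not tested. Foxn1 stood at 40.3 CPM in control cells, 90.4 in Foxn1 1089/1089 cells and 36.7 in the remaining library. The source of the higher level in the Foxn1 1089/1089 library was not tested. The control library held 82936619 UMIs and the Foxn1 1089/1089 library 204655055, and the library labelled Tbx1 neo2/neo2 held 137498422.

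Parathyroid cells made up a larger part of the epithelium in the Foxn1 1089/1089 library than in the control library. Among cells with at least 3 Epcam UMIs, 313 of 3791 were members in the Foxn1 1089/1089 library (8.26%, 7.40 to 9.18%) and 25 of 1896 in the control library (1.32%, 0.855 to 1.94%). By contrast, the library labelled Tbx1 neo2/neo2 had 0 members among 879 such cells, which allows a share of up to 0.341%. The Foxn1 1089/1089 share was 6.26 times the control share (4.16 to 9.83). Members without 3 Epcam UMIs numbered 8 in the Foxn1 1089/1089 library and 4 in the control library, and 1 more lay in the library labelled Tbx1 neo2/neo2. Median depth of the members was 24330 UMIs in the Foxn1 1089/1089 library and 11608 in the control library, against 21040 and 17302 in the other Epcam-positive cells.

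The Pth limit of 50 UMIs did not fall in a gap, as kept cells lay close to it on both sides. Foxn1 1089/1089 members nearest to the limit had 52, 58, 59, 59 and 62 Pth UMIs, and the nearest cells outside had 49, 49, 43, 43 and 43. Control members nearest to it had 58, 68 and 72 Pth UMIs and the nearest cells outside had 44, 33, 31, 29 and 28. These control cells outside also held 8, 10, 6, 8 and 12 Chga UMIs, in the same order. Whether such cells are parathyroid cells was not tested. Every kept cell with at least 50 Pth UMIs also had at least 5 Chga UMIs. The single member of the library labelled Tbx1 neo2/neo2 held 132 Pth and 24 Chga UMIs of 1114 in all, with 1 Gcm2 UMI, 2 of Gata3, 4 of Ccl21a and none of Epcam, Casr or Spp1, and the next cell of that library had 6 Pth UMIs.

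**Figure D1:**
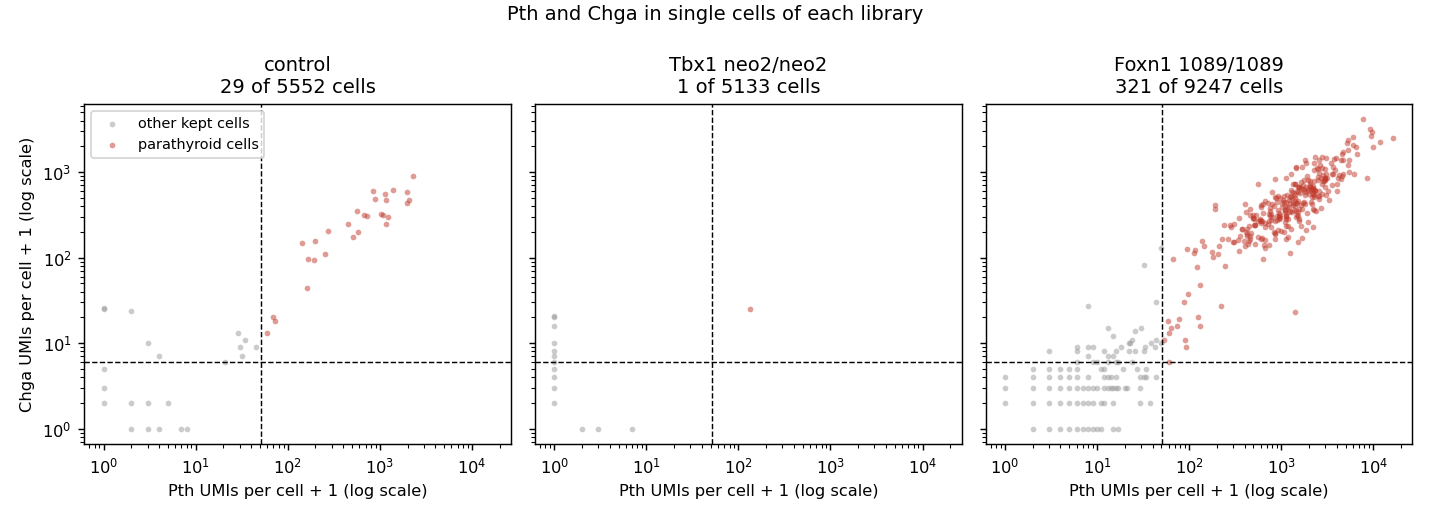
Each point is a kept cell with at least 1 UMI of Pth or Chga, with Pth UMIs + 1 on the x axis and Chga UMIs + 1 on the y axis (log scales), with 1 panel per library. Dashed lines mark the limits of 50 and 5 UMIs, and the red members number 29 (control), 1 (labelled Tbx1 neo2/neo2) and 321 (Foxn1 1089/1089).

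The members were described by 3 markers that the rule did not use. These markers were chosen with earlier results of these data known, so that their levels are no independent check of the label. Gcm2, which specifies the gland, was found in 304 of the 321 Foxn1 1089/1089 members (94.7%) and in 1.61% of the other Epcam-positive cells. Its level was 313 CPM against 0.782, a ratio of 400 (314 to 518), and in the control library it was 180 against 0.120 CPM. Casr, the calcium-sensing receptor, stood at 74.2 against 0.616 CPM in the Foxn1 1089/1089 library, a ratio of 120 (91.0 to 162), and at 112 against 0.660 CPM in the control library. Spp1, which encodes the phosphoprotein osteopontin, stood at 3038 against 14.6 CPM in the Foxn1 1089/1089 library and at 1580 against 0.210 CPM in the control library. All 5 of the markers Pth, Chga, Spp1, Gcm2 and Casr were found in 187 of the 321 Foxn1 1089/1089 members (58.3%) and in 9 of the 29 control members. In the 29 control members, Gcm2 was found in 23, Spp1 in 16 and Casr in 14. By the rule every member has Pth and Chga, so that only the other 3 could be missing. With each cell thinned to 5000 UMIs, Gcm2 was found in 75.9% of 311 Foxn1 1089/1089 members and 0.533% of 3379 other Epcam-positive cells.

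Pth itself, which chose the cells, ranged from 2247 CPM in the lowest Foxn1 1089/1089 member to a median of 48753 and a highest value of 185976. Chga ranged from 190 CPM over a median of 16764 to 54031. Summed over members, Pth stood at 49193 CPM in the Foxn1 1089/1089 library and 72380 in the control library, and Chga at 15485 and 27264 CPM. As Pth and Chga chose the members, these levels are a description.

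Low counts of Pth were found in every cell type examined in the Foxn1 1089/1089 library. A Pth UMI was found in 63.1% of its other Epcam-positive cells at a median depth of 21040 UMIs, and likewise in 45.6% of its red blood cells (12501 UMIs), 73.5% of its Ptprc-positive leukocytes (26844 UMIs) and 53.5% of its Pdgfra-positive mesenchymal cells (14205 UMIs), while 74.0% of its Cdh5-positive endothelial cells (35863 UMIs) had one. The Pth level was 51.4 CPM in the other Epcam-positive cells, within the range of the other types, which were at 73.6 CPM (red blood), 53.0 (Ptprc), 56.8 (Pdgfra) and 44.0 (Cdh5). The level in the other Epcam-positive cells was 0.105% of that in the members and the level in red blood cells 0.150%. The share of the other Epcam-positive cells with a Pth UMI is therefore not read as a trait of epithelium, and its source was not tested. Of the control library, 6.15% of the other Epcam-positive cells, 4.99% of red blood cells and 6.39% of Ptprc-positive cells had a Pth UMI.

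Among Epcam-positive cells, few lay between the low Pth counts of most cells and the members. In the Foxn1 1089/1089 library, 15 Epcam-positive cells had 10 to 49 Pth UMIs and 81 had 5 to 9, against 2099 with 1 to 4. The 15 cells held Gcm2 at 26.2 CPM and Spp1 at 1168, between the levels of the 81 cells below them (2.1 and 15.4 CPM) and those of the 25 members with at least 50 but under 200 Pth UMIs (134 and 4972 CPM). Foxn1 went the other way, from 153 CPM in the 81 cells to 90.8 in the 15 and 43.5 in the 25. Whether the 15 cells are single cells was not tested. Non-members with under 3 Epcam UMIs are outside these counts. In the Foxn1 1089/1089 library, they made up most of the non-members with 10 to 49 Pth UMIs, so that the 15 cells are the smaller part. The control library had 0 Epcam-positive cells in this range, but its other kept cells outside the members reached 44 Pth UMIs.

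The transcription factors of the pouch were in part higher, in part lower and in part of like level beside the other Epcam-positive cells. In the Foxn1 1089/1089 library, 5 of the 13 measured members of the list of parathyroid and pouch factors were at least 2-fold higher and 2 at least 2-fold lower, after 10 CPM was added to both sides. Over all 12852 genes with at least 100 UMIs, 7.95% were at least 2-fold higher and 3.26% at least 2-fold lower. The list's median log2 ratio was 0.06, beside 0.12 over all genes. A low-count gene that reached 100 UMIs through the members alone had to be higher, so that such counts are descriptions.

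Gata3, the factor mutated in hypoparathyroidism with deafness and renal dysplasia, stood at 707 against 33.9 CPM, a ratio of 20.9. Among control cells Gata3 stood at 1143 against 22.6 CPM, a ratio of 50.7 (44.6 to 57.5).

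Tbx1, targeted in another genotype of the series, was also high in the members. Foxn1 1089/1089 members held it at 41.8 CPM against 2.76 in the other Epcam-positive cells, a ratio of 15.1 (12.9 to 17.8). A Tbx1 UMI was found in 210 of the 321 members (65.4%) and in 4.66% of the other Epcam-positive cells. Of the 1035 Tbx1 UMIs in that library's kept cells, 492 lay in members. The control members held 5 Tbx1 UMIs, or 15.5 CPM (5.03 to 36.1), against 0.720 CPM in the other Epcam-positive cells.

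Pax9, a paired-box factor needed for pouch organs, stood at 473 against 183 CPM, a ratio of 2.58 (2.50 to 2.66). Its relative Pax1 went the other way, at 165 against 596 CPM, a ratio of 0.278 (0.265 to 0.290). Both held in the control library, where the ratios were 2.50 (2.06 to 2.99) for Pax9 and 0.223 (0.164 to 0.297) for Pax1. Isl1, a LIM-homeodomain factor, was the other gene of the list at least 2-fold lower, at 20.7 against 175 CPM. Six4, Eya1 and Hoxa3, which pattern the early pouch, lay between the 2-fold limits in the Foxn1 1089/1089 library, with ratios of 1.05 (0.967 to 1.14), 1.38 (1.30 to 1.47) and 0.974 (0.878 to 1.08). Eya1 was at least 2-fold higher in the control library, where its level in the other Epcam-positive cells was 24.3 CPM against 71.3 in the Foxn1 1089/1089 library.

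**Figure D2:**
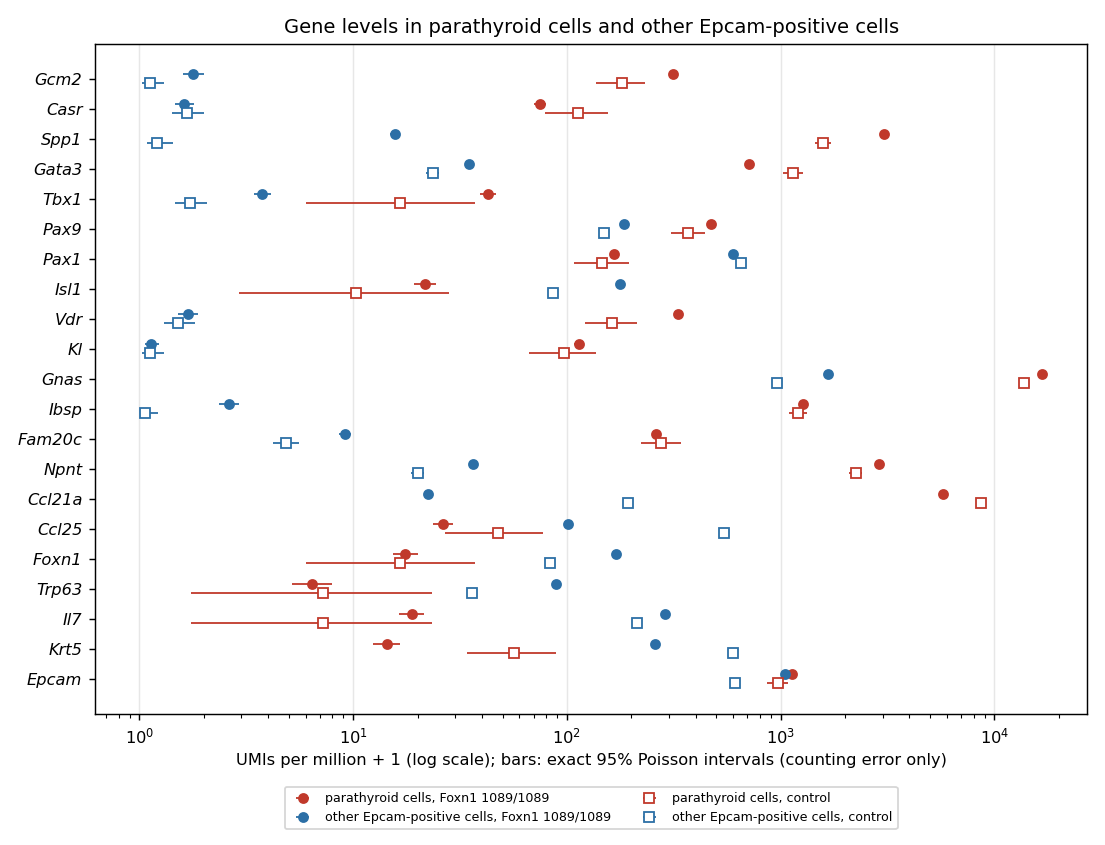
Levels of named genes in CPM + 1 (log scale) for members (red) and other Epcam-positive cells (blue) of the Foxn1 1089/1089 library (filled circles) and the control library (open squares), with exact 95% Poisson intervals that cover counting error only. Gcm2, Casr, Spp1, Gata3, Tbx1, Vdr, Kl and Ibsp lie to the right in the members of both libraries, and Pax1, Isl1, Ccl25, Foxn1, Trp63, Il7 and Krt5 to the left, while Epcam is at 1127 and 1046 CPM in the Foxn1 1089/1089 library.

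Of 12 measured genes for sensing calcium, vitamin D and phosphate signals, 6 were at least 2-fold higher in the Foxn1 1089/1089 members, 5 lay between the limits and 1 was at least 2-fold lower, with a median log2 ratio of 0.74, beside 7.95% and 3.26% of all genes. In the control library 1 of 7 measured genes, Gnas, was at least 2-fold higher, beside 10.4% of all genes there, and Casr, Vdr, Kl and Fgfr1 had under 100 UMIs. Vdr, the vitamin D receptor, stood at 329 against 0.687 CPM, a ratio of 479 (369 to 631), and was found in 92.5% of members. Kl, which encodes the FGF23 co-receptor Klotho, stood at 112 against 0.130 CPM, with 1323 UMIs against 11, and was found in 80.1% of members and 0.288% of the other Epcam-positive cells. Fgfr1, the receptor that Klotho assists, stood at 49.6 against 5.52 CPM.

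Gnas encodes the stimulatory G protein alpha subunit downstream of hormone receptors. It was found in every one of the 321 members and stood at 16706 against 1661 CPM, a ratio of 10.1 (9.99 to 10.1), and in the control library at 13751 against 964 CPM. The G proteins Gnaq and Gna11, through which Casr signals, did not differ by 2-fold, at 70.2 against 60.1 and 62.0 against 58.1 CPM. Ap2s1, an adaptor subunit whose mutation disturbs Casr trafficking, stood at 270 against 124 CPM.

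Several genes of the calcium axis were at or near 0. Cyp24a1 and Trpv5 had 0 UMIs in members and in other Epcam-positive cells of both libraries, and Cyp27b1 and Calb1 had 0 UMIs in members. In 11768036 UMIs of the Foxn1 1089/1089 members, 0 UMIs allow up to 0.255 CPM. S100g, a vitamin D-dependent calcium-binding protein of the intestine, was the gene at least 2-fold lower, at 0.340 against 12.9 CPM.

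The secretory granule list was high in few members other than Chga. Of 20 genes, 10 had at least 100 UMIs in the Foxn1 1089/1089 library. Of these, 3 were at least 2-fold higher and none lower, beside 7.95% and 3.26% of all genes. The 3 include Chga, which chose the cells. Besides Chga these were Cpe, which trims basic residues from prohormones, at 65.1 against 14.9 CPM, and the vesicle SNARE Vamp2 at 67.6 against 24.9 CPM. Furin, a proprotein convertase of the constitutive pathway, stood at 23.5 against 8.70 CPM. The neuroendocrine granule genes Chgb, Scg2, Scg3, Pcsk1 and Snap25 had 0 UMIs in the 321 members, and Pcsk2 had 1, so that the members showed Chga without this wider set at this depth.

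Of the 19 genes of the secretory pathway and folding list, 2 were at least 2-fold higher and none lower, a share near the 7.95% of all genes, with a median log2 ratio of 0.47. They were Spcs1 (643 against 213 CPM) and Sec11c (80.1 against 23.9 CPM), which encode subunits of the signal peptidase complex. The chaperone genes Hspa5 and Hsp90b1 stood at 604 against 563 and 700 against 762 CPM. In the PTH family list, Pthlh, the gene of the related local hormone, had 2.29 against 6.10 CPM and the shared receptor Pth1r 2.89 against 5.56 CPM, both with at most 34 UMIs in members. Pth2 and Pth2r had 0 UMIs in both groups of both libraries.

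Genes of mineralised matrix formed the list with the highest median after the 5 parathyroid markers. The list was chosen with earlier results of these data known and shares Spp1 with the 5 markers, so that its rank is a description. In the Foxn1 1089/1089 library, 6 of 8 measured genes were at least 2-fold higher and 1 lower, beside 7.95% and 3.26% of all genes. The list's median log2 ratio was 5.63. In the control library 7 of 8 were higher, beside 10.4% of all genes there, with a median of 5.58. Ibsp, which encodes bone sialoprotein, stood at 1279 against 1.62 CPM and was found in 96.0% of members. Its level over single members ran from 0 to a median of 1266 and a highest value of 4872 CPM, and in the control library it stood at 1208 against 0.0600 CPM, the latter from 2 UMIs. Npnt, which encodes the matrix protein nephronectin, stood at 2891 against 35.2 CPM, and Sparcl1, which encodes a matricellular protein related to osteonectin, at 1969 against 14.1 CPM.

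The secretory kinase Fam20c, which phosphorylates casein and osteopontin, stood at 259 against 8.17 CPM, and its activating partner Fam20a at 554 against 4.78 CPM. Sparc stood at 554 against 280 CPM, just under 2-fold. The bone-forming cell genes were absent or low in the same cells: Runx2 had 3 UMIs in the Foxn1 1089/1089 members, Sp7, Bglap, Dmp1 and Mepe had 0, and Alpl, the list member that was lower, stood at 2.04 against 15.5 CPM.

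Spp1, Ibsp and Sparcl1 are neighbours on chromosome 5 of GRCm38. The Sparcl1 gene spans chr5:104079111-104113733, Ibsp chr5:104299171-104311469 and Spp1 chr5:104435118-104441050, so that Sparcl1 starts 321 kb and Ibsp 136 kb before Spp1. Between them lie Dspp, Dmp1 and Mepe, the dentin and bone genes of the same family. In the Foxn1 1089/1089 members these had 8, 0 and 0 UMIs, against 23174 for Sparcl1, 15046 for Ibsp and 35753 for Spp1. The flanking gene Pkd2, starting 24.3 kb after Spp1, stood at 94.2 against 19.0 CPM, and Nudt9, on the far side of Sparcl1, at 67.5 against 25.9 CPM.

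**Figure D3:**
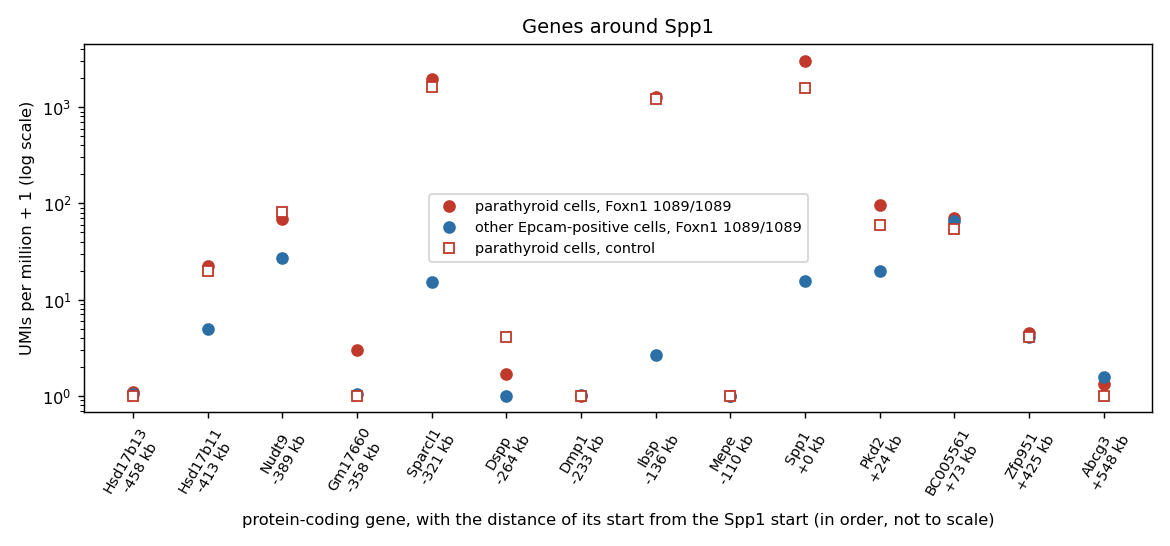
Protein-coding genes within 500 kb of Spp1, in chromosome order with the distance of each start from the Spp1 start, and their level in CPM + 1 (log scale) in members of the Foxn1 1089/1089 library (red circles), other Epcam-positive cells of that library (blue circles) and control members (open squares). Sparcl1, Ibsp and Spp1 lie at 1208 CPM or more in both member groups, while Dmp1 and Mepe are at 0.

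Ccl21a, a chemokine that draws CCR7-bearing thymocyte precursors, was found in 99.4% of the Foxn1 1089/1089 members and 96.6% of the control members. It stood at 5759 against 21.4 CPM in the Foxn1 1089/1089 library, a ratio of 269 (256 to 282), and at 8637 against 193 CPM in the control library, a ratio of 44.8 (42.9 to 46.9). Ccl21a has near-identical copies in the mouse genome, so that its reads may have been split or dropped and its level is uncertain. Ccl25, the chemokine of thymic epithelium that depends on Foxn1, stood at 25.3 against 99.7 CPM in the Foxn1 1089/1089 library and 46.5 against 542 CPM in the control library. Of 6 measured chemokine-list genes in the Foxn1 1089/1089 library, 2 were at least 2-fold higher (Ccl21a and Cxcl14) and 1 lower (Ccl25). The shares over all genes there were 7.95% and 3.26%.

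The other genes among the 25 highest ratios carried a mixture of functions. Rnase4, a secreted ribonuclease, stood at 1275 against 13.5 CPM, and Anpep, aminopeptidase N, at 432 against 1.58 CPM. Pla2g7, a secreted phospholipase that inactivates platelet-activating factor, stood at 976 against 30.1 CPM, and Ece1, the endothelin-converting enzyme, at 754 CPM with a ratio of 34.3. The lens crystallin gene Cryba2 stood at 216 against 0.332 CPM and was found in 81.3% of members. The 25 also included Gdpd1, Ddx26b, Kansl1l, Gng12, Flrt2, Id4, Sema3d, Tmem37 and Fbxo2. All 25 were also at least 2-fold higher in the control library, with log2 ratios of 3.87 to 12.37 there and 4.45 to 9.65 in the Foxn1 1089/1089 library. The 25 include Pth and Chga, which chose the members in both libraries, and Pth gave the highest ratio in each.

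Over all genes, the 2 libraries can be set side by side because no member barcode was shared. Within the control library, 10.4% of 10572 genes were at least 2-fold higher in members and 6.91% at least 2-fold lower. Of the 10474 genes measured in both libraries, 810 were higher in the Foxn1 1089/1089 library and 1104 in the control library. The 590 shared genes were 72.8% of the first set and 53.4% of the second. Of the lower genes, 242 were shared, which is 59.9% of 404 and 33.5% of 722. Just 1 gene was higher in the Foxn1 1089/1089 library and lower in the control library, and 1 the reverse.

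Thymic epithelial genes were low in the members. Of 13 measured genes of the thymic list, none was higher and 7 were at least 2-fold lower in the Foxn1 1089/1089 library, beside 3.26% of all genes. The list's median log2 ratio was -1.07. Among control cells, 12 of 14 were at least 2-fold lower, beside 6.91% of all genes there, with a median of -2.04. Foxn1 itself stood at 16.6 against 169 CPM in the Foxn1 1089/1089 library, a ratio of 0.0983 (0.0849 to 0.113), and at 15.5 against 82.1 CPM in the control library. Il7, the thymocyte survival cytokine, stood at 17.8 against 288 CPM, Kitl, the stem cell factor gene, at 5.18 against 72.6 CPM and Trp63, the stratified epithelium factor, at 5.44 against 87.9 CPM.

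Foxn1 UMIs in members moved with the doublet score. Of the 321 Foxn1 1089/1089 members, 48 had a Foxn1 UMI, and 25 of these 48 (52.1%) were marked as likely doublets, against 40 of the other 273 (14.7%). Median depth was 40370.5 UMIs in the 48 and 21347 in the rest. With likely doublets left out, Foxn1 stood at 4.93 CPM in the remaining 256 members. The 48 cells had Gcm2 at 244 CPM against 333 in the rest. Likely doublets were 20.2% of all Foxn1 1089/1089 members and 11.6% of the other Epcam-positive cells, and 8 of the 29 control members. The members' own features can raise a doublet score, and how many are true doublets was not tested.

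Epithelial genes were divided by type. Of 15 keratin and junction genes, 4 were at least 2-fold higher in the Foxn1 1089/1089 members and 6 at least 2-fold lower, beside 7.95% and 3.26% of all genes. The 4 were the adherens junction gene Cdh1 (149 against 68.7 CPM) and the tight junction claudins Cldn3 (126 against 28.7 CPM), Cldn6 (165 against 51.9 CPM) and Cldn7 (217 against 86.3 CPM). The 6 included Krt5, the basal keratin, at 13.3 against 258 CPM, the squamous genes Sfn at 46.6 against 583 CPM and Perp at 19.0 against 205 CPM, and Krt17 at 0.425 against 23.1 CPM. Krt8 and Krt18, the simple epithelial keratins, stood at 265 against 483 and 484 against 340 CPM. Krt18 was at least 2-fold lower in the control members, where the other Epcam-positive cells stood at 2033 CPM.

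The 15 genes with the lowest ratios included Mgp, Krt5, Fxyd3, Bpifa1, Il7, Stmn2, Sfn, Gstm1, Hpgd, Nefm, Kcnn3, Pdlim1, Fabp5 and Fap. Mgp, which encodes an inhibitor of calcification, stood at 19.3 against 335 CPM, and the microtubule regulator Stmn2 at 89.0 against 1051 CPM. In the control library 14 of the 15 were at least 2-fold lower too. The exception was Gstm1, with a log2 ratio of -0.59 there, as its level in the other Epcam-positive cells was 33.1 CPM in the control library and 461 in the Foxn1 1089/1089 library.

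**Figure D4:**
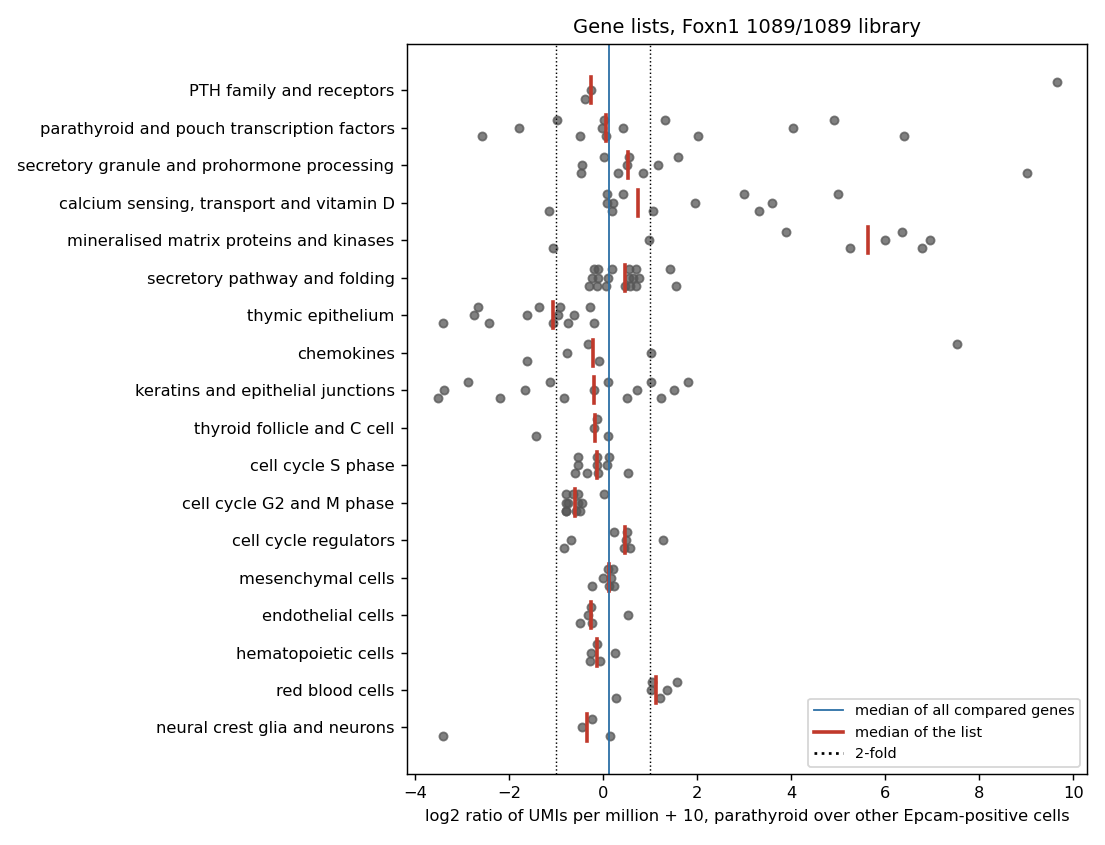
Each point is a gene with at least 100 UMIs, placed by its log2 ratio of CPM + 10 between members and other Epcam-positive cells of the Foxn1 1089/1089 library. Red bars are list medians, the blue line is the median of all 12852 genes at 0.12 and dotted lines mark 2-fold. The mineralised matrix list lies at a median of 5.63 and the thymic epithelium list at -1.07.

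Summed markers of thyroid, endothelial, hematopoietic and neural cells were lower in the members than in the other Epcam-positive cells of the Foxn1 1089/1089 library, and those of mesenchymal and red blood cells were not. In the Foxn1 1089/1089 members, the defining genes Pax8, Foxe1 and Tg of the thyroid follicle had 0 UMIs, and 6 of the 10 genes of the thyroid list were found at 7.31 CPM in sum against 29.7 in the other Epcam-positive cells. The 7 mesenchymal genes were all found, at a sum of 278 CPM against 254, and single members ran from 0 over a median of 41.7 to 6439 CPM. The control members went the other way for this list, with a sum of 49.6 against 96.3 CPM. The median log2 ratio of the mesenchymal list in the Foxn1 1089/1089 library turned from above to below 0 with an Epcam minimum of 1 UMI. The 5 endothelial genes summed to 25.9 against 35.3 CPM and the 6 hematopoietic genes to 29.7 against 35.2 CPM, with 20 UMIs of Ptprc and 0 of Cd3d. None of the 5 measured genes of either list differed by 2-fold. Cells with at least 10 UMIs of a list were 0.935% of members against 0.288% (endothelial), 1.87% against 1.98% (hematopoietic) and 11.5% against 7.56% (mesenchymal). The 6 genes of neural crest glia and neurons summed to 98.8 against 1065 CPM, mostly Stmn2, while Sox10 had 1 UMI.

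The 6 red blood cell genes summed to 3149 CPM in Foxn1 1089/1089 members against 1270 in the other Epcam-positive cells. Of the 6, 5 were at least 2-fold higher, beside 7.95% of all genes (2 of 5 measured with likely doublets left out). Over single cells the medians were 1298 and 1212 CPM and the highest values 45625 and 48787, so that the sums differed through few cells. The members had been filtered on hemoglobin, and without that limit, a setting added after seeing the data, the list's median log2 ratio turned from 1.12 to -0.42. The control library's sums were 251 and 239 CPM.

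Cell cycle genes were found in both groups. With each cell thinned to 5000 UMIs, at least 3 of the 12 G2 and M phase genes were found in 140 of 311 Foxn1 1089/1089 members (45.0%, 39.4 to 50.7%) and in 1843 of 3379 other Epcam-positive cells (54.5%, 52.8 to 56.2%). This left out 10 and 99 shallower cells. Without thinning the shares were 57.6% and 70.4%. None of the 12 genes differed by 2-fold with all members, 4 were at least 2-fold lower with likely doublets left out, and the list's median log2 ratio was -0.61, with Mki67 at 201 against 200 CPM and Cdk1 at 138 against 248 CPM. Of the control cells, 13 of 22 members passed (59.1%, 36.4 to 79.3%) against 67.6% of the other Epcam-positive cells. At least 3 of the 10 S phase genes were found in 37.3% of the thinned Foxn1 1089/1089 members and 43.2% of the other Epcam-positive cells.

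Of 8 measured cell cycle regulators, 1 was at least 2-fold higher in the Foxn1 1089/1089 library, a share near the 7.95% of all genes, and 3 of 8 were in the control library, beside 10.4%. The 1 gene was Cdc73, which encodes the parafibromin tumour suppressor lost in parathyroid carcinoma. It stood at 127 against 47.3 CPM in the Foxn1 1089/1089 library and 136 against 43.8 CPM in the control library. Men1, the gene of multiple endocrine neoplasia type 1, stood at 29.5 against 16.8 CPM.

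Among the members themselves, Spp1 varied widely. Of the Foxn1 1089/1089 cells, 77 of 321 members (24.0%) had no Spp1 UMI, 56 had 1 to 9, and 103 (32.1%) had at least 100, with a highest count of 1193. Over single members Spp1 ran from 0 over a median of 1207 to 40722 CPM, while Gcm2 ran from 0 over 279 to 1175 CPM. Spp1 was chosen for a closer description after its values were seen. It was also among the 15 most variable genes of the members, a ranking that left Pth and Chga out.

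Spp1 was high where Pth was low. Over the 321 members, Spearman's rho between Spp1 and Pth in CPM was -0.52, and between Spp1 and Chga -0.34. All genes of a cell share that cell's total, and Pth takes up several percent of it, so these correlations are descriptions. Spp1 went up with Cxcl14 (0.68), Fam20a (0.56), Vdr (0.54) and Npnt (0.48) and down with Ibsp (-0.32), and with Gcm2 and with UMIs per cell rho was -0.05 and 0.13. Pth went up with Chga (0.66), both of which chose the cells, and with Ibsp (0.49).

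The same was seen in levels. In the 107 members with the lowest Spp1, up to 119 CPM, Pth stood at 76107 CPM, Ibsp at 1775, Vdr at 153, Fam20a at 280, Lmo7 at 48.0 and Cxcl14 at 19.2. In the 107 with the highest Spp1, from 2952 CPM, these stood at 31344, 899, 453, 812, 290 and 153 CPM. Gcm2 was at 299 CPM in both sets, and Ccl21a at 6200 and 5871 CPM. Lmo7, a cytoskeletal adaptor gene, was named after its values were seen. Likely doublets were 30.8% of the low set and 9.35% of the high set, and median depth was 18027 and 24782 UMIs. With likely doublets left out, rho between Spp1 and Pth was -0.62 over 256 members.

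The Foxn1 1089/1089 members came from at least 2 embryos, since both sexes were found. Of 301 members with at least 10000 UMIs, 93 had at least 2 UMIs of Xist and not of the Y-linked genes Uty, Kdm5d, Eif2s3y or Ddx3y (called female), 170 had at least 2 of the Y-linked genes and not of Xist (male), and 38 were not called. Called cells were 35.4% female among members (29.6 to 41.5%) and 18.5% female among the other Epcam-positive cells (17.0 to 20.1%). The control members had 8 female and 4 male cells.

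Spp1 stood at 1390 CPM in the 93 female members (median of single cells 98.7) and 4129 CPM in the 170 male members (median 2059). Pth stood at 59622 and 47510 CPM, Ibsp at 1736 and 1171 CPM, and Gcm2 at 355 and 314 CPM. Among control cells, Spp1 stood at 2006 CPM in the 8 female and 1249 CPM in the 4 male members, the other way round. Sex and embryo cannot be told apart, and cells are not replicates. Within the female cells rho between Spp1 and Pth was -0.54, and within the male cells -0.57.

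**Figure D5:**
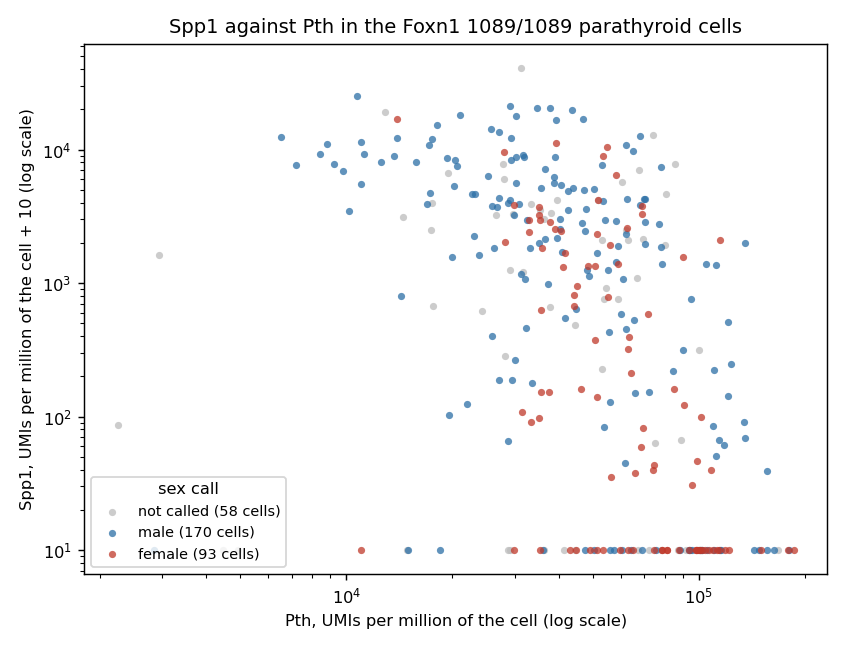
Each point is a Foxn1 1089/1089 member, with Pth in CPM of the cell on the x axis and Spp1 in CPM + 10 on the y axis (log scales), coloured by the sex call (93 female, 170 male, 58 not called). The row of points at 10 is the 77 cells with no Spp1 UMI, and Spp1 is lower toward high Pth, with rho of -0.54 in female and -0.57 in male cells.

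The other variable genes were mostly not of the parathyroid lists. Besides Spp1, the 15 with the largest residual variance, Pth and Chga aside, were the hemoglobin genes Hbb-y, Hbb-bs, Hbb-bt, Hba-x, Hba-a1 and Hba-a2, and Akr1c18, Ptn, Nupr1, Malat1, Plac8, Upk3a, Col3a1 and Igfbp5. Akr1c18, which encodes a progesterone-metabolising enzyme, was found in 11.8% of members, where single cells reached 9152 CPM, and in 0.460% of the other Epcam-positive cells. Upk3a, a uroplakin of the bladder lining, was found in 52.6% of members at a summed 76.2 against 2.50 CPM, and stood at 77.4 against 0.270 CPM in the control library. Ptn, which encodes the growth factor pleiotrophin, was found in 53.6% of members and 94.9% of the other Epcam-positive cells.

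Lastly, the members of the Foxn1 1089/1089 and control libraries were compared with each other. Of 9385 genes with at least 100 UMIs in both member groups together, 4.21% were at least 2-fold higher in Foxn1 1089/1089 members and 1.62% at least 2-fold lower, with a median log2 ratio of 0.18. The control side rests on 322810 UMIs of 29 cells. None of the 5 markers differed by 2-fold after 10 CPM was added to both sides, with Gcm2 1.74 times (1.34 to 2.30), Casr 0.665 times (0.477 to 0.956) and Spp1 1.92 times (1.76 to 2.10) the control level. Gata3 was 0.618 times (0.557 to 0.688), Ibsp 1.06 times (0.957 to 1.17) and Vdr 2.04 times (1.55 to 2.74) the control level. Cells of 1 library per genotype give no error between embryos.

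The genes farthest apart between the 2 sets of members differed the same way in the other Epcam-positive cells, where log2 ratios were 0.83 to 3.46 for the 10 highest and -5.01 to -1.46 for the 10 lowest. The 10 highest were Hbb-y, Hba-a2, Col3a1, Hbb-bs, Hba-x, Hba-a1, Col1a2, Arl5b, Dcn and Mest, with Hbb-y at 1229 against 40.3 CPM in members and 408 against 27.9 CPM in the other cells. Col3a1, a fibroblast collagen, stood at 113 against 3.10 CPM in members and 103 against 28.5 CPM in the others. With likely doublets left out, Col3a1 stood at 50.3 CPM in the Foxn1 1089/1089 members. The 10 lowest were Gm42418, Lars2, Rpgrip1, Slc24a5, Hist1h1b, Slc39a1, Abhd2, Jag1, Notch2 and Cbx3. Gm42418, which overlaps ribosomal RNA repeats, stood at 159 against 7933 CPM in members and 157 against 5349 CPM in the others. Jag1, a Notch ligand, stood at 48.2 against 276 CPM in members and 39.7 against 173 CPM in the others.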

How the data were processed

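Per the labels, Cell Ranger 3.0.0 was used with the mouse build mm10, and the authors deposited raw UMI counts per gene and barcode for 3 libraries, without normalization. The library labelled Tbx1 neo2/neo2 did not show lower Tbx1 than the control library over all kept cells, whose mix of cell types differed between libraries. Barcodes with at least 200 genes, 500 UMIs, under 20% mitochondrial and under 5% hemoglobin UMIs were kept (5552 of 6410 control barcodes, 9247 of 12447 Foxn1 1089/1089 barcodes and 5133 of the other 5759). The members and gene lists were chosen with earlier results of these data known. Counts were summed over cells. For 2-fold counts and list medians, 10 CPM was added to both sides and genes needed 100 UMIs in the compared cells together. Genes were named if listed, if among the 25 highest (found in 50% of members) or 15 lowest ratios, the 10 highest and 10 lowest between libraries (all with 300 UMIs), or the 15 largest variances of Pearson residuals (theta 100, found in 10% of members). Intervals were Clopper-Pearson, Poisson and conditional binomial. Scrublet in scanpy 1.11.5 marked the top scores, at the platform's nominal rate for the number of barcodes, as likely doublets, which were kept. Libraries shared 17, 18 and 28 barcodes, none of them members. The number of embryos per library was not given in the sources used here. The code was tested on simulated data. Coordinates are GENCODE M21 (GRCm38). Some genes that the naming rule or the lists include, and 1 motif searched, are not reported here.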

Additional observations from a re-analysis of the deposited data

Results flagged for a closer look

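Among barcodes outside the comparisons, 25 of the Foxn1 1089/1089 library met the Pth and Chga limits but held at least 5% hemoglobin UMIs and had been left out. The control library and the library labelled Tbx1 neo2/neo2 had 0 such barcodes. The 25 had a median of 35634 UMIs, a median of 970 Pth UMIs and hemoglobin shares of 5.54% to 87.7%. Gcm2 was found in 22 of them, 24 had at least 3 Epcam UMIs, and 13 were marked as likely doublets. Their part in the results was not tested beyond the setting without a hemoglobin limit.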

How the results depend on the processing

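No paired analysis was possible because each genotype had 1 library. The share of Foxn1 1089/1089 Epcam-positive cells that were members was 9.49% with each cell thinned to 5000 UMIs and 6.81% with an Epcam minimum of 1 UMI, against 8.26%. With 1 CPM added in place of 10, 2437 genes were at least 2-fold higher and 1241 lower in members than in other Epcam-positive cells, against 1022 and 419, and between the 2 libraries' members 1215 were higher and 270 lower, against 395 and 152. Between the members, 279 were lower when every cell weighed the same, 150 were higher and 79 lower at a gene minimum of 500 UMIs, and 220 were higher and 75 lower with members thinned to 5000 UMIs. Fewer genes could pass in the last 2 settings, and the cause of the others was not tested. Without a hemoglobin limit, a setting added after seeing the data, the red blood cell list's median log2 ratio turned from 1.12 to -0.42, since hemoglobin-rich cells then entered both groups. Of 742 recomputed ratios of 53 genes, 204 left the counting interval of the reported value, 17 moved by over 1 on the log2 scale, 7 turned sign, none of them called at 2-fold, and 4 passed 2-fold. Of 266 list medians, 40 left it without a called median turning, 5 turned sign, the red blood cell list included, 4 fell under 2-fold and 3 passed it. The control side of 29 cells sets the precision between libraries.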
